A study of Nannochloropsis oceanica strain IMET1 with 15 samples.

Results

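A pair of lines of the microalga *Nannochloropsis oceanica* IMET1 that were knocked out in the same gene, NO08G00280, were compared with each other at the transcript level. The lines are called M1 and M2 and are labelled Mutant1 and Mutant2. The members are their RNA-seq libraries, 3 of M1 and 3 of M2, taken by their labels, which make 6 of the 15 libraries of the series. The other 9 libraries are 3 each of the wild type (WT) and of M3 and M4, a pair of lines that were knocked out in another gene, NO06G02500. Both M1 and M2 were made with CRISPR–Cas9 on a plasmid that carries resistance to zeocin, an antibiotic used to select transformants, and the same holds for M3 and M4 but not for the WT. All cultures were grown in air-bubbled glass columns under high light and were collected on day 7. As every line is 1 clone, the spread among its 3 libraries, biological triplicates by the study's methods, is that of 1 clone and not of independent knockouts. A difference between M2 and M1 can therefore come from anything in which these 2 clones differ.

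*N. oceanica* is a marine alga that stores oil in lipid droplets and is grown for it. In its DNA, adenine can carry a methyl group on its exocyclic nitrogen, the mark 6mA, which methyltransferases add with S-adenosyl-methionine as the methyl donor and dioxygenases of the AlkB family can take off. The study examined NO08G00280 as a possible writer of this mark and NO06G02500, an AlkB family gene, as a possible eraser. Comparing clones of one knockout shows how far a transcript difference from the WT is shared by lines that carry the same disrupted gene.

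Expression is given as TMM-normalized TPM, that is, a transcript's share of a library, corrected for gene length and scaled across libraries by 1 factor each. Values are thus relative, and a change in the total RNA of a cell would not be seen in them. The files used hold no read counts, so a counting error cannot be given. A relative measure of depth, the ratio of coverage to FPKM, was 5.12 to 5.29 in M1, 4.91 to 5.34 in M2 and 4.69 to 6.17 over all libraries. Of 10493 genes, 9440 averaged 1 or more across the 15 libraries and were tested with limma on log2(value + 1), a scale that understates the change of weakly expressed genes. A value of 0 can be a failed estimate, since for 203 tested genes 1 library had 0 while a further library of that line reached at least 20. Because the library kit does not mark strand, reads from a stretch where genes overlap in position cannot be told apart.

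Transcripts of the knocked-out gene were present in every library of both clones. NO08G00280 (chromosome 8, 111285 to 112766) had 11.01, 8.82 and 5.94 TMM-normalized TPM in M1 and 7.42, 7.64 and 6.74 in M2. The log2-fold change of M2 against M1 was -0.18 (± 0.22 SE, limma adjusted p = 0.585), and the values of the clones overlapped. Cas9 editing need not lower a transcript, so this value does not check the labels.

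The clones differed mainly by genes that were lower in M2, among them genes of sulfolipid synthesis, proton pumping, potassium transport and phosphate transport. Differentially expressed genes (DEGs), defined by an adjusted p that did not exceed 0.001 and a change above 2-fold, numbered 142, or 1.50% of the genes tested. Of these, 112 were lower in M2 (1.19% of the genes tested) and 30 were higher (0.318%). The lower DEGs had a median log2-fold change of -1.41, with a range from -3.73 to -1.002, and 18 of them differed by more than 4-fold. Among the higher DEGs the median was 1.32, the smallest difference was 1.03, and 5 exceeded 4-fold. For comparison, the median over all genes tested was -0.0016. All 142 had values that did not overlap between the clones, which was the case for 44.3% of the genes tested. A description was at hand for 43 of the 142, of which 35 were lower in M2 and 8 higher. Descriptions were at hand for 228 of the 9440 genes tested and come from genes that the study had called on these libraries. The gene lists below are therefore not whole gene classes. At an adjusted p under 0.05, 2443 genes passed (25.9%), 1112 of them higher in M2 (11.8%) and 1331 lower (14.1%), and from here on genes are called higher or lower in M2 by this threshold. With TPM that were not scaled across libraries, this split turned to 1397 higher and 1058 lower, while the DEGs stayed mostly lower (35 higher and 100 lower).

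The number of DEGs depended on single libraries and on the fit. When M1 replicate 1, 2 or 3 was left out it was 56, 44 or 206, and when M2 replicate 1, 2 or 3 was left out it was 48, 45 or 77. In a fit of the 6 libraries of M1 and M2 alone, where the spread rests on these libraries only, 2 genes were DEGs and 1875 passed at an adjusted p under 0.05. Those 2 DEGs, NO04G01590 and NO07G04430, were both higher in M2. The number at an adjusted p under 0.05 was 1512 without M1 replicate 1 and 1620 without M2 replicate 1.

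**Figure D1:**
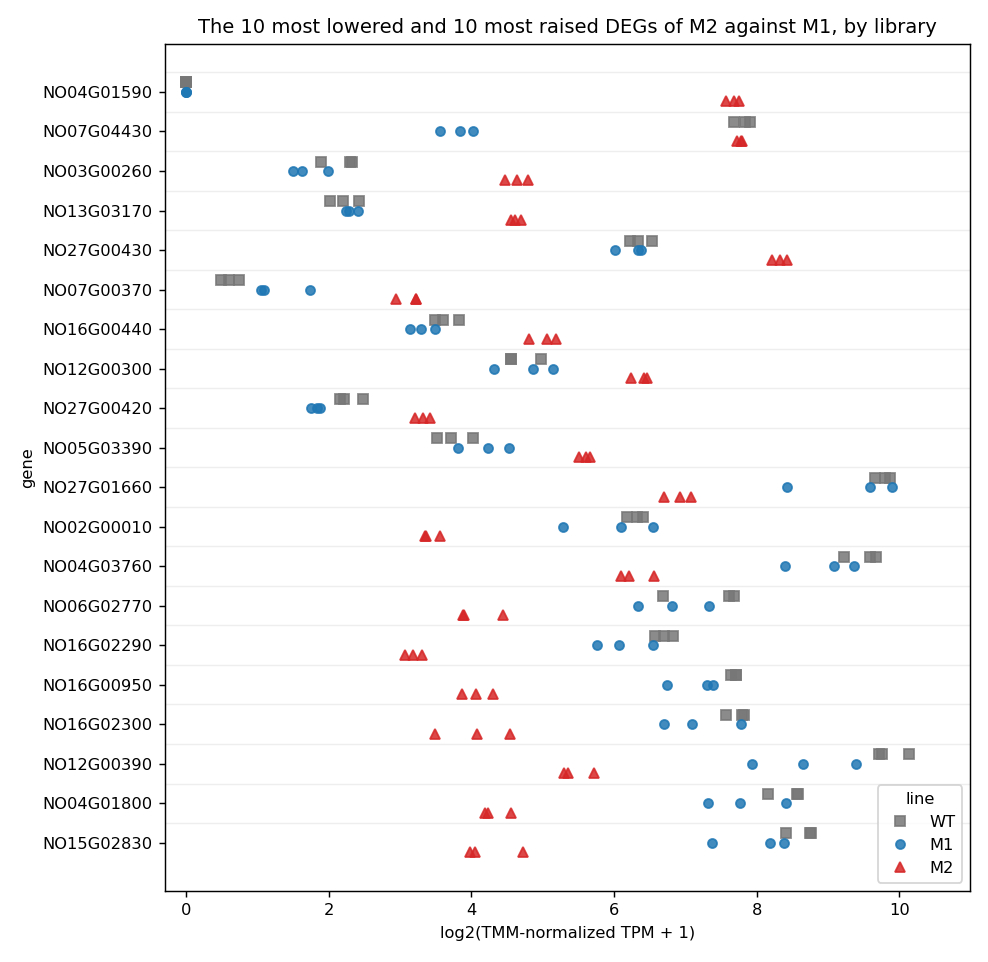
Expression in each WT, M1 and M2 library (1 point each, as log2 of TMM-normalized TPM plus 1) for the 10 DEGs with the largest decrease and the 10 with the largest increase in M2 against M1. The values of M1 and M2 do not overlap in any of the 20 genes; NO04G01590 lies at 0 in WT and M1, and NO07G04430 is low in M1 alone.

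Among the 10 largest increases, 2 genes without a description stood out by their pattern over the lines. NO04G01590 (chromosome 4, 481024 to 482757) is listed at 0 in all 3 M1 libraries and had 189, 204 and 215 TMM-normalized TPM in M2. It is also listed at 0 in every WT and M4 library, while M3 had 163, 266 and 295, so its presence did not follow the knocked-out gene. No fold change is given for it, and its fitted difference had an adjusted p of 3.0e-10 from limma.

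NO07G04430 (chromosome 7, 1244189 to 1245586) had 10.8, 15.3 and 13.3 in M1 against 210.2, 219.7 and 220.3 in M2. The M2 values lay within the range of the WT, which had 205, 239 and 227, so it was M1 that stood apart. The log2-fold change of M2 against M1 was 3.96 (± 0.14 SE, limma adjusted p = 1.5e-08).

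The WT mean was nearer to M1 than to M2 for 138 of the 142 DEGs and nearer to M2 for 4, which were named after their values were seen. These comparisons share libraries with M2 against M1 and are given side by side only. The same count over all genes tested was not made. Over all genes tested, 163 differed from the WT in M1 and 3271 in M2 (limma adjusted p under 0.05). The median log2-fold change of the 112 lower DEGs was -0.26 in M1 and -1.48 in M2, each against the WT, and that of the 30 higher DEGs was -0.04 in M1 and 1.36 in M2. Besides NO07G04430, the 4 are NO27G01230, NO18G02490 and NO21G00170, all without a description.

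NO27G01230 had 44.4, 54.9 and 44.5 TMM-normalized TPM in M1, 116, 117 and 119 in M2, and 115, 108 and 121 in the WT. NO18G02490 had 113, 116 and 128 in M1, 31.5, 33.2 and 37.2 in M2, and 14.7, 13.7 and 13.3 in the WT. Both clones thus lay above the WT in NO18G02490, M1 by more. NO21G00170 was weakly expressed, at 3.66, 4.89 and 7.05 in M1 and 0.781, 0.542 and 0.951 in M2, with 1.87, 2.12 and 1.57 in the WT between them. Their log2-fold changes of M2 against M1 were 1.28, -1.78 and -1.79.

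A search for genes under 1 in every library of one clone and at 5 or more in every library of the other found NO04G01590 and 1 gene in the reverse direction. NO01G03950 (chromosome 1, 1052473 to 1055168) had 62.8, 8.68 and 43.3 in M1 and is listed at 0 in all 3 M2 libraries (limma adjusted p = 0.0079). It overlaps NO01G03960 in position, and its values varied widely within M1 and within the WT, where it had 8.20, 11.5 and 65.7.

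The largest decrease in M2 was in a gene of sulfolipid synthesis, and all 3 genes at hand with this description were lower. They are described as sulfoquinovosyldiacylglycerol 2, the glycosyltransferase that completes the sulfolipid SQDG of plastid membranes. NO15G02830 (chromosome 15, 773479 to 775661) had 333.5, 289.8 and 165 TMM-normalized TPM in M1 and 14.8, 15.6 and 25.3 in M2. Between the clones this made a log2-fold change of -3.73 (± 0.26 SE, limma adjusted p = 8.6e-06). Without M1 replicate 3, the lowest of the M1 values, it was -4.04.

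NO07G01720 (chromosome 7, 518681 to 520571) had 725, 595 and 419 in M1 and 186, 204 and 247 in M2, a log2-fold change of -1.42 (± 0.17 SE, limma adjusted p = 2.4e-04). NO05G03760 (chromosome 5, 982337 to 985528) had 197, 168 and 153 in M1 and 82.2, 79.2 and 85.3 in M2, a log2-fold change of -1.06 (± 0.12 SE, limma adjusted p = 1.6e-04). The clones did not overlap in any of the 3 genes, and all 3 were DEGs.

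Of 13 genes of proton pumps and ion transport, 11 were lower in M2, 5 of them DEGs, and none was higher, also at an unadjusted p under 0.05. The median log2-fold change of the list was -0.90. Like the other lists, it was drawn from genes that the study had called on these libraries, so its count is not independent evidence. For this and the other lists, the shares over all genes tested were 14.1% lower and 11.8% higher. Without M1 replicate 3, all 13 genes of proton pumps and ion transport were lower.

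Plasma membrane H(+)-ATPases pump protons out of the cell and drive the uptake of nutrients. NO12G00390, described as H(+)-ATPase 2 (chromosome 12, 141260 to 146773), had 671, 401 and 243 TMM-normalized TPM in M1 and 38.4, 39.99 and 51.9 in M2, and the clones differed by a log2-fold change of -3.20 (± 0.28 SE, limma adjusted p = 3.5e-05), and NO12G00400 lies partly over it. M1 varied widely between its own libraries in this gene, and still its lowest library lay far above every M2 library.

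NO17G00440, described as H(+)-ATPase 1 (chromosome 17, 162738 to 168112), had 259, 155 and 120.3 in M1 and 36.2, 34.0 and 42.02 in M2, a log2-fold change of -2.15 (adjusted p = 1.5e-04). By contrast, NO12G00380, the neighbour of NO12G00390 with the same description, had 364, 285 and 169 in M1 and 146, 180.3 and 179 in M2. These ranges overlapped, and its log2-fold change of -0.63 did not pass (adjusted p = 0.0821); it overlaps NO12G00370.

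A calcium pump and potassium channels followed the same direction. NO16G02820, described as calcium-transporting ATPase 3 of the endoplasmic reticulum type, had 337, 274 and 196 in M1 and 70.9, 68.0 and 90.4 in M2 (log2-fold change -1.78, adjusted p = 1.4e-04). This gene overlaps NO16G02810 in position. NO10G02520 and NO10G02530, neighbours on chromosome 10 between 680204 and 688932, are both described as the STELAR K+ outward rectifier, a channel that lets potassium out of cells. NO10G02520 had 122, 99.2 and 80.1 in M1 and 31.2, 28.7 and 32.0 in M2, a log2-fold change of -1.66 (± 0.15 SE, limma adjusted p = 3.7e-05). NO10G02530 had 107, 85.9 and 72.2 in M1 and 28.7, 29.7 and 32.4 in M2, a log2-fold change of -1.50 (± 0.17 SE, limma adjusted p = 2.1e-04). The V-ATPase subunit genes NO04G03350 and NO15G01190, parts of the pump that acidifies the vacuole, were also lower, at -0.84 and -0.65. The call of NO15G01190 ended in the fit of the 2 clones alone.

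Genes of phosphate handling moved in both directions, and all 5 listed passed, 3 lower and 2 higher in M2 (median -0.45). NO24G00190, described as phosphate transporter 2;1 (chromosome 24, 58688 to 61037), had 575, 447 and 465 TMM-normalized TPM in M1 and 91.8, 80.3 and 138 in M2. The log2-fold change came to -2.28 (± 0.17 SE, limma adjusted p = 9.4e-06), without overlap, and it was -2.32 without M1 replicate 3. NO06G00660, an SPX domain gene of a family that senses phosphate in plants, had 297, 256 and 154 in M1 and 94.1, 105 and 109 in M2 (log2-fold change -1.14, adjusted p = 0.00316). In the other direction, NO04G04920, described as phosphate deficiency response 2, had 6.06, 8.15 and 9.78 in M1 and 16.5, 15.8 and 14.5 in M2 (log2-fold change 0.91, adjusted p = 0.00274), and it overlaps NO04G04910. The call of the other higher gene, NO20G02530, ended without M1 replicate 1, M2 replicate 2 or M2 replicate 3 (adjusted p = 0.0755, 0.081 and 0.0605).

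Of 4 sulfur genes, 2 were lower and 2 higher in M2 (median 0.02). The lower ones carry sulfate into the cell or across its membranes. NO11G01800, described as sulfate transporter 3;4, had 280.0, 236 and 185 in M1 and 118, 118 and 142 in M2 (log2-fold change -0.87, limma adjusted p = 0.00174). For NO10G00770, described as sulfate transporter 4.1, which overlaps NO10G00760, the log2-fold change was -0.81 (adjusted p = 0.00454). NO08G00750, described as a mercaptopyruvate sulfurtransferase, was higher at 1.04 (adjusted p = 0.00121).

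Of 4 listed genes of nitrate assimilation, 1 was lower in M2 and none was higher (median -0.41), with 1 lower and 0 higher at an unadjusted p under 0.05. The nitrate reductase gene NO14G02460 had 28.98, 25.7 and 27.7 TMM-normalized TPM in M1 and 33.7, 30.9 and 22.8 in M2, against 44.8, 50.8 and 55.3 in the WT. The clones overlapped, with a log2-fold change of 0.07 (± 0.23 SE, limma adjusted p = 0.874). For the nitrite reductase gene NO26G00710 it was -0.18 (± 0.26 SE, limma adjusted p = 0.65). The gene that passed was NO24G02300, which acts in the synthesis of the molybdenum cofactor of nitrate reductase, with 274, 334 and 185 in M1 and 201, 143 and 155 in M2. The values of the clones overlapped, and its call (log2-fold change -0.64, adjusted p = 0.0243) ended in the fit of the 2 clones alone (0.126) and without M1 replicate 1, M1 replicate 2, M2 replicate 2 or M2 replicate 3 (0.0732 to 0.0956).

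Kinases and G proteins, which relay signals within the cell, moved in both directions. Of 12 listed, 4 were higher and 5 lower in M2, with a median of -0.33. NO06G02770 (chromosome 6, 780723 to 784726) is described as SNF1-related protein kinase 1.3, a family that responds to the energy state of plant cells. It had 160.3, 111 and 79.6 TMM-normalized TPM in M1 and 13.8, 13.8 and 20.9 in M2, a log2-fold change of -2.75 (± 0.31 SE, limma adjusted p = 1.6e-04). The G protein alpha subunit gene NO04G03580 had 53.3, 45.5 and 29.8 in M1 and 8.10, 6.93 and 9.06 in M2, a log2-fold change of -2.25 (± 0.24 SE, limma adjusted p = 1.5e-04). In both genes every M1 library lay above every M2 library.

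The largest increase among described genes was in NO27G00430 (chromosome 27, 159912 to 164165), described as calcium-dependent protein kinase 19, an enzyme switched on by calcium. It had 63.7, 79.8 and 81.9 in M1 and 320.3, 295 and 343 in M2, while the WT had 73.7, 91.5 and 79.6. The log2-fold change was 2.08 (± 0.12 SE, limma adjusted p = 1.3e-06), and the M1 and WT values overlapped each other but not those of M2. Its neighbour NO27G00420, of the WD40 repeat family, had 2.68, 2.57 and 2.35 in M1 and 8.27, 9.70 and 8.97 in M2 (log2-fold change 1.50, adjusted p = 9.5e-05). A G protein coupled receptor gene, NO16G02230, was higher as well, with 35.3, 36.4 and 42.2 in M1 and 70.9, 77.4 and 73.6 in M2. For another calcium-dependent kinase gene, NO15G00050, the log2-fold change of -1.90 lost its call without any 1 of M1 replicates 1 and 2 and the 3 M2 libraries (adjusted p = 0.0734 to 0.13).

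Of 6 tested genes listed for light response and the plastid, 3 were lower in M2, 1 was higher and 2 did not pass (median -1.08). The higher one is a light-harvesting complex gene and not a regulator. NO01G04880 (chromosome 1, 1289986 to 1292497), is an aureochrome by the study's text, a blue-light receptor of stramenopiles that is also a transcription factor, and its gene description reads phototropin 2. It had 57.5, 39.0 and 28.1 TMM-normalized TPM in M1 and 8.93, 11.4 and 11.1 in M2. The WT had 68.7, 92.7 and 97.6, so the 3 lines did not overlap, with M1 between the WT and M2. The log2-fold change of M2 against M1 was -1.84 (± 0.21 SE, limma adjusted p = 2.0e-04). NO08G01840, a further aureochrome gene, had 381, 391 and 407 in M1 and 409.8, 398 and 424 in M2 (log2-fold change 0.06, SE 0.06, adjusted p = 0.508).

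NO02G04780, described as circadian clock associated 1, a transcription factor of the plant clock, had 74.7, 73.8 and 44.2 in M1 and 19.8, 18.4 and 23.3 in M2 (log2-fold change -1.57, adjusted p = 1.8e-04). NO09G00450, annotated as light-harvesting complex gene 6 of photosystem I, was among the most abundant transcripts named and was higher in M2. Against the WT, the study reports that nearly all light-harvesting complex genes were downregulated in M1 and M2. For NO09G00450 the comparison here is between the clones. This gene had 2639.6, 3891 and 4209 in M1 and 7397, 7497 and 7497 in M2, a log2-fold change of 1.09 (± 0.23 SE, limma adjusted p = 0.00507), and it overlaps NO09G00440.

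In lipid storage and fatty acid metabolism, 2 of 8 tested genes were higher in M2, 3 were lower and 3 did not pass (median -0.15). NO16G00440 (chromosome 16, 162640 to 163707) belongs to the GNS1/SUR4 family, whose members elongate fatty acids in yeast. It had 7.78, 8.84 and 10.2 TMM-normalized TPM in M1 and 35.5, 32.4 and 27.0 in M2, a log2-fold change of 1.71 (± 0.15 SE, limma adjusted p = 3.5e-05). NO11G02550 encodes the lipid droplet surface protein, which coats the oil bodies of this alga. It had 1217, 1119 and 879 in M1 and 525, 528 and 626 in M2, a log2-fold change of -0.93 (± 0.12 SE, limma adjusted p = 3.2e-04), and the WT at 1846, 1854 and 1757 lay above both clones.

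The triglyceride lipase gene NO18G01550 and the lipase gene NO20G00510, whose products break down storage or other lipids, were lower at -0.79 and -0.68, the latter in overlap with NO20G00500. The lipase gene NO05G00120 was near the floor in both clones, at 3.26, 8.20 and 2.92 in M1 and 3.09, 0 and 1.71 in M2, and did not pass (adjusted p = 0.368). NO07G01500, described as a diacylglycerol acyltransferase, had 9.79, 9.79 and 45.5 in M1 and 48.2, 48.9 and 3.81 in M2, so 1 library of each clone was far from the other 2. It overlaps NO07G01510, and no difference was shown (adjusted p = 0.848).

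The listed redox and detoxification genes were mostly lower in M2, with 8 of 11 lower and 2 higher (median -0.88). The alternative oxidase gene NO02G00290 (chromosome 2, 103535 to 107279), whose product passes electrons to oxygen without pumping protons, had 421, 445 and 334 TMM-normalized TPM in M1 and 166, 156 and 158 in M2, and the clones differed by a log2-fold change of -1.31 (± 0.11 SE, limma adjusted p = 3.5e-05). The peroxide-removing ascorbate peroxidase NO26G00430 had 94.4, 125 and 94.3 in M1 and 36.8, 44.0 and 49.98 in M2 (log2-fold change -1.24), and the superoxide dismutase NO13G01830 had a log2-fold change of -1.18. NO01G01360, described as dehydroascorbate reductase 2, which regenerates ascorbate, went the other way. It had 48.8, 53.1 and 71.5 in M1 and 139, 136 and 122 in M2 (log2-fold change 1.20, SE 0.12, adjusted p = 1.1e-04).

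Chaperones, which help proteins fold, gave 5 lower, 1 higher and 7 genes that did not pass among 13 (median -0.84). NO02G03090, described as heat shock protein 91, had 1065, 1149.8 and 734 in M1 and 386, 439 and 583 in M2 (log2-fold change -1.06, limma adjusted p = 0.00515). In 1 chaperone gene, the libraries of a clone lay further apart than the means of the clones. NO03G01460, of the heat shock protein 90 family, had 159.9, 1509 and 1448 in M1 and 78.2, 739 and 94.1 in M2, with a log2-fold change of -1.99 and an SE of 1.40 (adjusted p = 0.329).

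The listed genes of translation and RNA processing were more often higher than lower, with 5 of 12 higher, 2 lower and 5 that did not pass (median 0.82). NO20G02570, the elongation factor Ts, which recharges the factor that brings tRNA to the ribosome, had 34.4, 39.5 and 42.9 TMM-normalized TPM in M1 and 98.1, 90.8 and 84.5 in M2, and the clones differed by a log2-fold change of 1.21 (± 0.17 SE, limma adjusted p = 5.7e-04). A gene described as poly(A) binding protein 8, NO02G03730, had 2.42, 3.08 and 4.18 in M1 and 10.7, 9.34 and 8.97 in M2 (log2-fold change 1.36). NO03G01740, a small ribosomal subunit protein gene, had 144, 171 and 255 in M1 and 345, 334 and 343 in M2 (log2-fold change 0.88, adjusted p = 0.0062). Without M1 replicate 3, 6 of the 12 were higher.

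Of 5 purine and folate genes, 3 were higher in M2 and 1 lower (median 0.77). NO22G00410, described as adenosine kinase 1, which clears adenosine, a product of methyl transfer, had 17.1, 27.2 and 31.0 in M1 and 58.1, 54.0 and 55.0 in M2 (log2-fold change 1.16, limma adjusted p = 0.00455). The lower gene, NO10G00370, overlaps the genes on both of its sides and lost its call in the fit of the 2 clones alone and without M1 replicate 1, M1 replicate 2 or M2 replicate 2 (adjusted p = 0.0547 to 0.0824).

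Of 10 tested genes of meiosis and the cell cycle, 2 were higher and 4 lower (median -0.62). NO11G02310, an Aurora kinase, which acts in chromosome segregation, had 55.3, 56.4 and 37.3 TMM-normalized TPM in M1 and 17.3, 19.8 and 24.1 in M2 (log2-fold change -1.23, limma adjusted p = 3.8e-04). NO10G02420, of the Spo11 family, whose members cut DNA to start meiotic recombination, had 12.3, 14.9 and 16.6 in M1 and 26.9, 26.2 and 27.9 in M2 (log2-fold change 0.85, adjusted p = 0.00333). The other 3 lower genes, NO16G00790, NO13G01690 and NO17G02980, each lost their call without M1 replicate 1, M1 replicate 2, M2 replicate 1 or M2 replicate 2 (adjusted p = 0.0608 to 0.14).

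Of 6 chromatin genes, 2 were higher and 1 lower (median 0.38). The higher ones are NO17G00610, of the enhancer of polycomb family, at a log2-fold change of 0.65 (adjusted p = 0.00228), and NO05G03230, of the SET domain family of histone methyltransferases, at 0.82 (adjusted p = 0.00883). The lower one, the histone gene NO03G01990 at -0.47 (adjusted p = 0.0354), lost its call without any 1 of the 6 libraries. NO06G02500, the gene knocked out in M3 and M4, had 63.6, 59.96 and 66.6 in M1 and 70.8, 61.9 and 66.6 in M2 (log2-fold change 0.07, adjusted p = 0.52). Together, the 11 genes that the text of the study names gave 6 lower and 5 that did not pass, and none was higher, also at an unadjusted p under 0.05. Of the 6, the methionine sulfoxide reductase gene NO21G00950 lost its call without M1 replicate 1, M2 replicate 1 or M2 replicate 2. The call of NO24G02300 was likewise lost under the settings given above.

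**Figure D2:**
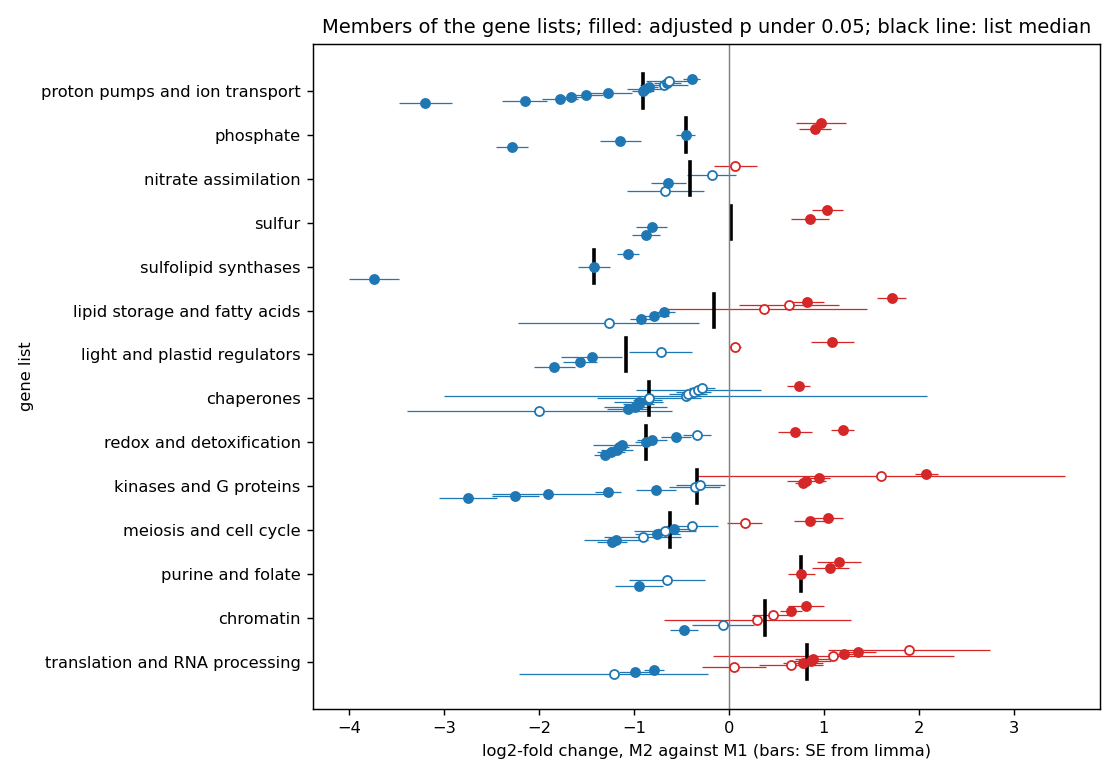
Log2-fold change of M2 against M1 for each tested member of 14 gene lists (points, with the SE from limma as bars), filled where the adjusted p was under 0.05, with the median of each list as a black line. Sulfolipid synthases and proton pumps and ion transport lie left of 0 throughout (medians -1.42 and -0.90), while phosphate, sulfur, and kinases and G proteins hold filled points on both sides.

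Chloroplast transcripts were lower in M2 than in M1 as a share of each library. The summed values of chloroplast genes were 0.0329% to 0.0343% of the total in M1 and 0.0169% to 0.0202% in M2, without overlap. These shares are very small, and only 68 of 125 chloroplast genes reached the mean of 1 needed for testing. Whether the share follows expression in the chloroplast or the preparation of the RNA was not tested. Over chloroplast and mitochondrion together the share was 0.0453% to 0.0465% in M1 and 0.0271% to 0.0318% in M2 (exact permutation test, 2-sided p = 0.1, the smallest that 3 against 3 libraries allow). The shares of mitochondrial genes were closer, at 0.012% to 0.0132% and 0.0102% to 0.0116%.

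Of 68 tested chloroplast genes, 19 were lower, 3 were higher and 46 did not pass, with a median of -0.62. Without M1 replicate 3, 15 were lower and 2 higher. Over all genes tested, 14.1% were lower and 11.8% higher in M2, which also applies to the sets that follow. Photosystem II, which splits water, had 7 of 12 tested genes lower and none higher (5 lower without M1 replicate 3). Photosystem I had 3 of 7 lower and none higher. In both, none was higher at an unadjusted p under 0.05. Of the other sets, 2 of 5 tested cp-pet genes, 3 of 7 ATP synthase genes and 1 of 2 Rubisco genes were lower. The cp-pet set, taken by name prefix, holds cytochrome b6f genes as well as cp-petF and cp-petJ-2, which encode soluble electron carriers. Its lower genes were the cytochrome b6f gene cp-petB and cp-petJ-2. Chloroplast ribosomal protein genes gave 1 lower of 12 for the large subunit and 1 higher of 9 for the small one. None of the 2 tested chlorophyll synthesis genes and of the 1 tested RNA polymerase gene passed at an adjusted p under 0.05, with 0 and 1 at an unadjusted p under 0.05.

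The photosystem II core gene cp-psbA, the most abundant of these, had 119, 107 and 107 TMM-normalized TPM in M1 and 59.5, 53.2 and 51.4 in M2 (log2-fold change -1.01, SE 0.18, limma adjusted p = 0.00228). The photosystem I core gene cp-psaA had 5.43, 7.37 and 6.89 in M1 and 1.42, 1.15 and 0.759 in M2 (log2-fold change -1.85, adjusted p = 0.00105). The chaperone gene cp-dnaK and the photosystem II genes cp-psbD and cp-psbC, which are neighbours among the tested genes, were the 3 organelle DEGs, at -2.34, -1.56 and -1.48. The untested gene cp-ycf34 lies between cp-dnaK and cp-psbD. The end of cp-psbD overlaps the start of cp-psbC, and reads from that short stretch cannot be told apart. Against this direction, the elongation factor gene cp-tufA had 6.24, 7.54 and 9.38 in M1 and 16.7, 14.5 and 14.9 in M2 (log2-fold change 0.92, adjusted p = 0.00784).

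In the mitochondrion, 1 of 30 tested genes was higher and 2 were lower (median -0.11), beside 11.8% higher and 14.1% lower over all genes tested. Without M1 replicate 3, 0 were higher and 2 lower. The higher gene, mt-nad11, is listed at 3.73, 0 and 0 in M1, and the lower gene mt-atp8 at 0, 4.16 and 0 in M2. Both calls thus rest on values of 0, which can be failed estimates. Without the organelle genes, 139 genes were DEGs.

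**Figure D3:**
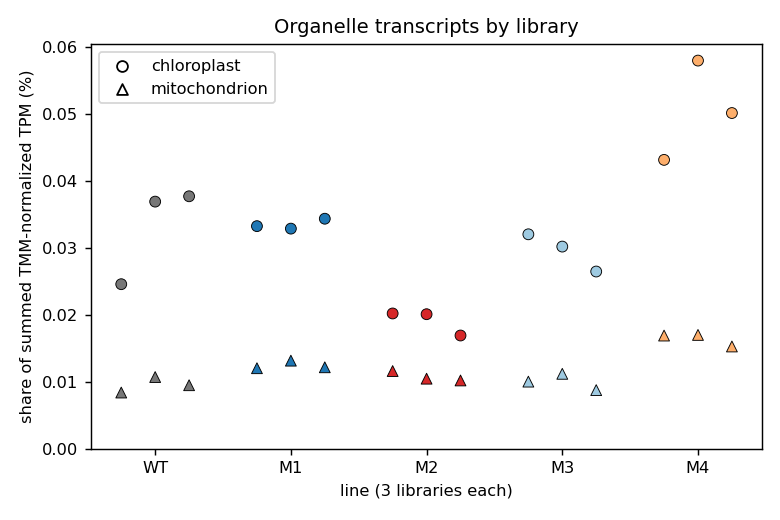
Share of the summed TMM-normalized TPM of each library that came from chloroplast genes (circles) and mitochondrial genes (triangles), with 3 libraries per line. M2 lies at 0.0169% to 0.0202% for the chloroplast, below the M1 libraries at 0.0329% to 0.0343%.

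The DEGs lay on 29 of the 30 nuclear chromosomes, in unequal shares. Chromosome 30 had 5 DEGs among 100 tested genes (5.0%) and chromosome 4 had 18 among 484 (3.72%), beside 1.50% over all genes tested, while chromosome 29 had none among 171. No test of these shares was made, and the median log2-fold change of a chromosome ranged from -0.06 to 0.07. With untested genes passed over, neighbouring DEGs of the same direction formed 11 runs with 23 genes, or 16.2% of the DEGs. No number of runs for genes drawn from all those tested was worked out. Apart from the chloroplast run, the runs were 10 pairs, among them the potassium channel genes NO10G02520 and NO10G02530, NO02G00280 (glyoxalase II 3) with the alternative oxidase gene NO02G00290, and NO27G00420 with NO27G00430. In a further pair, NO04G01090 and NO04G01100 overlap in position, and reads from their overlap cannot be told apart. The undescribed neighbours NO16G02290 and NO16G02300 were both among the 10 largest decreases. NO16G02290 had 92.6, 65.9 and 53.3 TMM-normalized TPM in M1 and 8.06, 7.41 and 8.92 in M2, and NO16G02300 had 218, 136 and 103 in M1 and 15.8, 10.3 and 22.3 in M2. NO01G00030 and NO01G00100 near the start of chromosome 1 are DEGs whose listed values differ by at most 0.04, so they may be copies between which reads cannot be assigned.

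Within 50 kb of a chromosome end lay 15 of the 109 nuclear DEGs lower in M2 (13.8%) and 1 of the 30 higher ones (3.33%), beside 7.74% of the nuclear genes tested. At the start of chromosome 18, the weakly expressed genes NO18G00120, NO18G00150 and NO18G00220, named after their values were seen, were DEGs with log2-fold changes of -1.66, -1.53 and -1.59. NO18G00150 had 8.13, 6.79 and 5.01 in M1 and 1.68, 1.60 and 1.54 in M2.

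DEGs of both directions also differed in expression level. When the genes tested were ranked by their mean and divided into 5 equal groups of 1888, the top group, with means of 124 and more, held 56 of the 112 DEGs lower in M2 and 3 of the 30 higher ones. The bottom group, with means up to 16.4, held 10 of the lower and 14 of the higher DEGs. A change of more than 2-fold on log2(value + 1) is harder to reach for genes with values near 1.

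By the median difference per gene, libraries of a clone resembled each other more than those of the other clone, and 1 M1 library lay toward M2. The median absolute difference between 2 libraries was 0.14 to 0.22 on the log2 scale within M1, 0.11 to 0.13 within M2 and 0.23 to 0.35 between the clones. By Pearson r across genes the ranges overlapped, at 0.899 to 0.909 within M1, 0.909 to 0.922 within M2 and 0.874 to 0.901 between the clones, and M1 replicate 3 correlated more with M2 replicate 3 (0.9006) than with M1 replicate 2 (0.899). The median SD of a gene over the 3 libraries was 0.16 in M1 and 0.11 in M2. M1 replicate 3 was the M1 library nearest to M2 in 126 of the 142 DEGs, 105 of the 112 lower ones and 21 of the 30 higher ones. Without it, 206 genes were DEGs, 42 higher and 164 lower, and 137 of the 142 were among them.

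The position of each library along this difference was described by its median deviation from the M1 mean over the DEGs. These values are a description, since the genes were chosen on the M1 and M2 libraries. Over the 112 lower DEGs the 3 M1 libraries lay at 0.24, 0.10 and -0.32 and the M2 libraries at -1.48, -1.40 and -1.27. Of the libraries not used to choose the genes by their difference, the WT lay at 0.12, 0.31 and 0.25, M3 at -0.18, -0.02 and -0.16, and M4 at 0.48, 0.54 and 0.58. Over the 30 higher DEGs, M2 lay at 1.302, 1.34 and 1.28, M3 at 0.26, 0.34 and 0.32, and M4 at -0.15, -0.11 and -0.12. Thus M3 lay on the side of M2 and M4 on the other, both far closer to M1 than to M2.

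**Figure D4:**
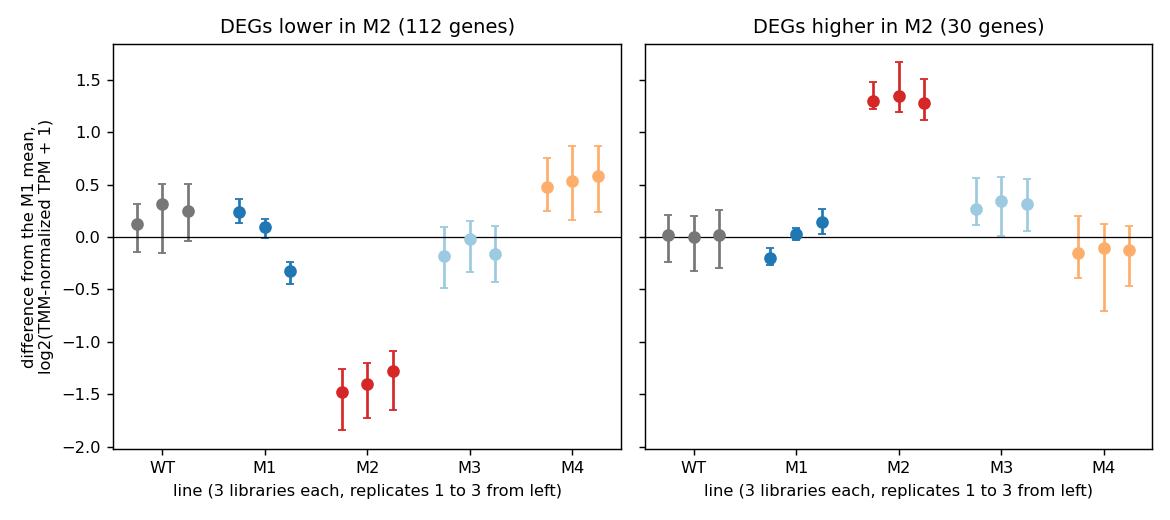
Median difference from the M1 mean (points, log2 of TMM-normalized TPM plus 1) over the 112 DEGs lower in M2 (left) and the 30 higher (right) in each of the 15 libraries, with bars from the 25th to the 75th percentile of genes. M2 lies near -1.4 and 1.3, M1 replicate 3 lies toward M2 among the M1 libraries, and M4 lies on the opposite side of M1 from M2 in both panels.

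The other pair of clones of 1 knockout in this experiment, M4 and M3, is set beside M2 and M1 and shares no library with them. By their sample labels, M1 and M2 have a common prefix while M3 and M4 have different ones. What the prefixes stand for is not given, so the pairs may not be alike in origin. There, 10 genes were DEGs (0.106% of the genes tested), 5 higher (0.0530%) and 5 lower (0.0530%) in M4, and 2421 passed at an adjusted p under 0.05 (25.6%). The number of DEGs of M4 against M3 was 5 to 56 when any 1 of the 15 libraries was left out, 24 without M1 replicate 1 and 56 without M1 replicate 3, since all lines share 1 estimate of the spread. It was 6 without M2 replicate 1, M2 replicate 3, M3 replicate 3 or M4 replicate 3 and 5 without M2 replicate 2. In separate fits of each pair alone, the order of the pairs turned, with 2 DEGs for M2 against M1 and 7 for M4 against M3. At an adjusted p under 0.05, the fit of all lines gave nearly the same number in each pair.

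When the clone differences themselves were compared, as M2 minus M1 against M4 minus M3, 557 genes were DEGs (5.90% of the genes tested), 250 higher (2.65%) and 307 lower (3.25%). They included 130 of the 142 DEGs of M2 against M1. Those 142 were chosen on M2 minus M1, which is part of this contrast, so the overlap is not independent evidence. Without 1 library their number was 273 to 748. It was 333 without M1 replicate 1, 294 without M1 replicate 2, 273 without M2 replicate 1 and 308 without M2 replicate 2. On the other pair, it was 356 without M3 replicate 2, 321 without M3 replicate 3, 295 without M4 replicate 2 and 339 without M4 replicate 3.

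The genes that were lower in M2 than in M1 were often higher in M4 than in M3. Of the 112 lower DEGs, 74 were higher in M4 than in M3, beside 11.8% of the genes tested, and none was lower, also at an unadjusted p under 0.05. Their median log2-fold change of M4 against M3 was 0.66, beside -0.01 over all genes tested. Of the 30 higher DEGs, 12 were lower in M4 than in M3, beside 13.9% of the genes tested, and 1, NO07G04430, was higher, with a median of -0.40. The aureochrome gene NO01G04880 had a log2-fold change of 1.24 (limma adjusted p = 0.00256), the G protein alpha subunit gene NO04G03580 of 1.33 (0.00332) and the calcium-dependent kinase gene NO27G00430 of -0.89 (0.00127). The phosphate transporter gene NO24G00190 did not pass there, with 0.15 (adjusted p = 0.558).

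Across all 9440 genes, which share their libraries and are not independent replicates, the 2 clone differences had a Pearson r of -0.21 and a Spearman rho of -0.36. At an adjusted p under 0.05, 1057 genes passed in both pairs, 43.3% of those called in M2 against M1 and 43.7% of those called in M4 against M3. Of these, 982 differed in opposite directions and 75 in the same direction. Over all genes tested, 25.6% passed in M4 against M3 and 25.9% in M2 against M1. Both pairs use 1 estimate of the spread per gene, so calls in one pair are not independent of calls in the other.

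**Figure D5:**
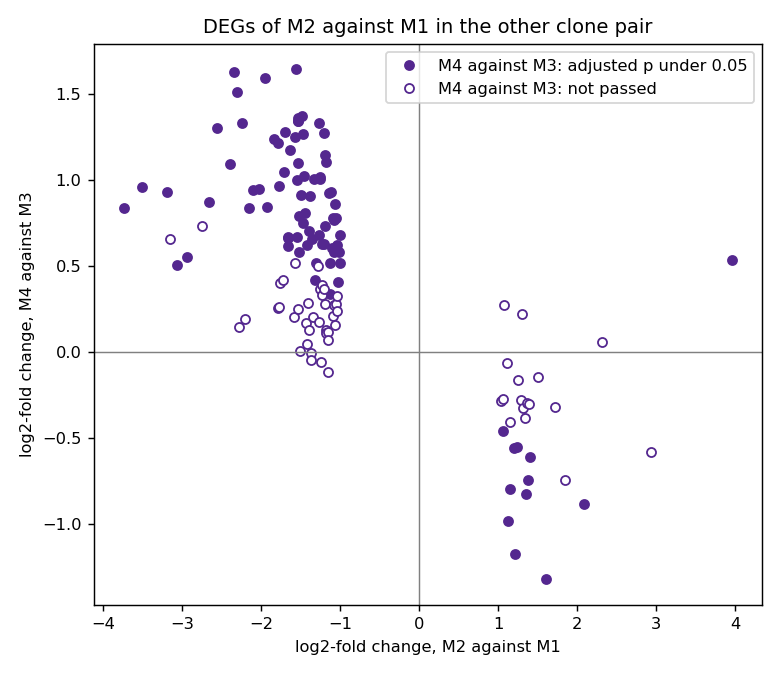
Log2-fold change of M4 against M3 plotted against that of M2 against M1 for 141 of the 142 DEGs, each a point, filled where M4 against M3 had an adjusted p under 0.05. NO04G01590, which is listed at 0 in M1 and M4, is left out. The 74 filled points at the upper left are lower in M2 and higher in M4, and NO07G04430 is the 1 filled point at the upper right.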

How the data were processed

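RNA-seq of 15 libraries, 3 for each of 5 lines, was used. Per the study's methods, the authors ran nf-core/rnaseq with STAR and made an expression matrix with Trinity by its RSEM2 method with TMM normalization; versions were not given in the sources used here. The tables per library have the layout of StringTie, and gene positions are those of the IMET1v2 genome. The deposited matrix holds a signal, TMM-normalized TPM, which equals the TPM of the deposited StringTie tables times 1 factor per library. These deposited tables also hold coverage, FPKM and TPM. The ratio of coverage to FPKM was used as relative depth. The edgeR test of the study needs read counts and was not used here.

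Genes with a mean of at least 1 were fitted as log2(value + 1) with limma 3.58.1 in R 4.3.3 (variance trend, all 5 lines in 1 fit, Benjamini-Hochberg adjustment), with Python 3.11.15, numpy 2.4.6, pandas 2.3.3 and scipy 1.17.1 for summaries. The fit was tested on simulated data. DEGs had an adjusted p not above 0.001 and a change above 2-fold; lists were counted at an adjusted p under 0.05. Named genes were the 10 largest changes in each direction among DEGs whose clones did not overlap, the 10 largest with a description, DEG runs, genes under 1 in one clone and at 5 or more in the other, and list members.

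The groups, members and lists were chosen with earlier results of these data known. The 14 lists and the genes named in the study's text come from descriptions of genes the study called on these libraries, and organelle sets from gene names, of which 157 of 160 matched the RefSeq organelle table. Coordinates are those of the deposited tables. Alternatives were other pseudocounts, filters, scalings and variance settings, a fit of the 2 clones alone, a replicate block and leaving out each library; library weights were added after seeing the data. Sequences are not printed because no genome was used here.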

Additional observations from a re-analysis of the deposited data

Results flagged for a closer look

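M1 and M2 carry the same disrupted gene, and the difference between their changes from the WT, which is M2 against M1, made 142 genes DEGs by limma (112 lower and 30 higher in M2). The clone difference of M1 and M2 differed from that of M3 and M4 in 557 genes by the same thresholds. Among the 142, the WT mean lay nearer to M2 than to M1 for 4 genes: NO21G00170 (log2-fold change of M2 against M1 -1.79), NO18G02490 (-1.78), NO27G01230 (1.28) and NO07G04430 (3.96).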

How the results depend on the processing

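No named gene that passed reversed its direction, while the sign of genes that did not pass could turn when 1 library was left out. Of 148 named genes tested, 112 passed and 93 of these did so under all 27 alternatives. The 142 DEGs of M2 against M1 became 2 in a fit of the 2 clones alone, 316 with library weights (chosen after seeing the data, and holding all 142) and 336 at an adjusted p under 0.05 with more than 2-fold. Leaving out 1 library gave 44 to 206. Genes at an adjusted p under 0.05 (2443) became 3849 with library weights and 1512 to 2768 without 1 library. For M4 against M3, the 10 DEGs became 132 with library weights, 225 at the looser threshold and 5 to 56 without 1 library. The difference of clone differences, 557 DEGs, became 880 with library weights and 273 to 748 without 1 library. With unscaled TPM, 56.9% of the genes called in M2 against M1 were higher in M2, beside 45.5%. The cause of these shifts was not tested.

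Replicate numbers did not pair the libraries: deviations of same-numbered libraries of M1 and M2 correlated at -0.018 to 0.012 and those of other numbers at -0.043 to 0.048. With the replicate block, the DEGs were 76 for M2 against M1, 6 for M4 against M3 and 360 for the difference of clone differences.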
